A study of Mus musculus with 15 samples.

Results

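The 44 genes described here encode the machinery of regulated exocytosis together with a few calcium channels. They were listed by symbol and role, with earlier results of these data known: 4 synaptotagmin-like proteins, 5 synaptotagmins and Doc2 proteins, 9 SNARE proteins, 10 SNARE regulators and priming factors, 7 Rab GTPases, 6 vesicle membrane proteins and 3 calcium channel subunits. All 44 had a named probe on the arrays, and each gene was represented by its brightest probe in red over the 15 arrays. A probe was tested if its red signal stood well above background on 4 or 5 arrays of some group. By this filter, 39 members were tested among 23941 features. Sytl5, Syt7, Rims2, Unc13a and Sv2a did not pass that filter and were not tested. Stxbp5l and Rab26 passed it through the N1N2 group alone.

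The samples were crypts, the epithelial pits of the small intestine, isolated by chelation from mice aged 6 to 8 weeks, 24 h after antibody treatment. The N1N2 plus Lrp6 group had received blocking antibodies against Notch1 and Notch2 and 30 mg/kg of anti-Lrp6. The N1N2 group received the Notch antibodies alone, and the control group an IgG antibody. For the Notch antibodies the labels state 1 mg/mL, a concentration and not a dose per animal. Each group had 5 arrays, stated to be biological replicates, with crypt RNA in red (Cy5) against 1 common mouse reference RNA in green (Cy3) and no dye swap. Values below are log2 ratios of crypt over reference, given in the order of replicates 1 to 5, which have no order of their own. A ratio depends on how much of the transcript the reference holds, so ratios of different genes were not compared with each other. The Snap25 and Snap23 probes, set side by side below, are the exception. The sources used here do not say whether an array held 1 animal or several.

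In regulated exocytosis, cells store cargo in granules or vesicles and release it on a signal, most often a rise in calcium. Rab GTPases of the Rab3 and Rab27 families and their effectors bring granules to the plasma membrane. Munc18 and Munc13 proteins prepare the SNARE proteins of both membranes, and SNARE pairing fuses the membranes. Synaptotagmins and related proteins couple fusion to calcium, which enters through voltage-gated channels. In the intestinal epithelium, goblet cells release mucin granules, Paneth cells release antimicrobial granules, and enteroendocrine cells release hormones and serotonin from dense-core granules. Notch signalling holds crypt progenitors back from these secretory fates, and Lrp6 is a co-receptor for Wnt ligands.

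Where members that moved together had a promoter in the RefSeq table used here (GRCm38.p6; 29 of the 44 members matched by symbol), the 250 bases before the annotated start are shown for those called at least 1.5-fold higher in N1N2 than in control crypts. They are printed 5′ to 3′ on the gene's strand, and capitals mark CAGCTG and CATCTG (either strand), letters of the kind bound by basic helix-loop-helix factors.
Sytl1 (chr4:133263088-133263337, minus strand): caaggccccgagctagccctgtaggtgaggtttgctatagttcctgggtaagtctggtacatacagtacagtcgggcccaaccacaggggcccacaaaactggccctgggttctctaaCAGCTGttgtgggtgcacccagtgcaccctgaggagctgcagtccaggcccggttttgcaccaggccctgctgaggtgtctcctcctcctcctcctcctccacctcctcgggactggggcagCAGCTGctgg
Rab3c (chr13:110280207-110280456, minus strand): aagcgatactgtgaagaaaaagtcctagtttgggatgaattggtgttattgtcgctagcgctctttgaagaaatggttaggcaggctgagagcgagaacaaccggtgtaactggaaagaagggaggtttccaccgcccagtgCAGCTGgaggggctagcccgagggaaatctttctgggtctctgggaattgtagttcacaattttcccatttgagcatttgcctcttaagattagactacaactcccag
Sytl4 (chrX:133981813-133982062, minus strand): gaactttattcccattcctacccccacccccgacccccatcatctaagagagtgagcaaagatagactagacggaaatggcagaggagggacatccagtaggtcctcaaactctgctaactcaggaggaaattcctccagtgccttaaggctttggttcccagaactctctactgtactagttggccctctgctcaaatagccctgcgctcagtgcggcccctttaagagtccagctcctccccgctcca
Rab3d (chr9:21918184-21918433, minus strand): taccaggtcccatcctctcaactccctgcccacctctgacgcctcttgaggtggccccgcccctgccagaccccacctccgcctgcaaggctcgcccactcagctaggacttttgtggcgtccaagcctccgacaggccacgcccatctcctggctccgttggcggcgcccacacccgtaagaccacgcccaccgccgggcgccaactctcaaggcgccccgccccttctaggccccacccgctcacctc
Unc13b (chr4:43058703-43058952, plus strand): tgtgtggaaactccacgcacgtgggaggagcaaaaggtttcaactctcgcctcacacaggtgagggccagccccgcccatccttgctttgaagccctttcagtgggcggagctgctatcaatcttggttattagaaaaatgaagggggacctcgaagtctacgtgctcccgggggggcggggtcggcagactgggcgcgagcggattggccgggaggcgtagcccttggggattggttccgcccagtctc

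The Sytl1 window held 2 copies of CAGCTG, with first bases 10 and 132 bases before the start, and the Rab3c window held 1 copy, 108 bases before the start. The windows of Sytl4, Rab3d and Unc13b held neither motif. Among all 32851 windows of 250 bases in the table, 25.5% held at least 1 of the 2 motifs (13.0% held CAGCTG and 14.4% held CATCTG). Of the 8 windows of the 7 members called higher in N1N2 than in control crypts, 4 held 1 of them, and of the 24 windows of the 19 tested members not called higher, 7 did (29.2%). The other members called higher, Cacna1a, Slc17a9, Sytl2, Syt13, Vamp2 and Slc18a1, had no window. They include those with the largest changes, so the counts leave these out. TGGGAA, letters found in sites of Rbpj, the DNA-binding partner of Notch, lay on either strand of 2 of the 8 windows, of 5 of the 24 windows (20.8%) and of 21.6% of all windows. These matches describe letters only and are no measure of binding.

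Across the 15 arrays, 57.2% to 79.8% of spots had red signal well above background, and no spot was flagged as saturated in red. Saturation in green was not checked. In the N1N2 plus Lrp6 group, replicates 1 to 4 shared 1 slide and had 57.2% to 66.9% of spots above background. Its replicate 5 lay on another slide and had 73.6%, against 70.1% to 77.2% in the N1N2 group and 71.1% to 79.8% in the control group. The arrays lay on 6 slides, and only 1 held 2 groups, namely N1N2 replicates 1 and 2 with control replicates 4 and 5. Slide and group can therefore be separated only for N1N2 against control. Lung transcripts stood apart in the N1N2 plus Lrp6 group: the mean log2 ratio of Sftpc, Sftpa1 and Scgb1a1 was 2.73 ± 0.68, against 0.20 ± 0.063 in the N1N2 group and 0.60 ± 0.39 in the control group (SD, n = 5 each). The part of these transcripts in the results below was not tested.

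In crypts of mice given the Notch antibodies, 13 of the 39 tested members rose against control crypts and none fell. The risers were Cacna1a, Slc17a9, Sytl2, Syt13, Sytl1, Sytl4, Rab3c, Vamp2, Rab3d, Slc18a1, Unc13b, Stxbp2 and Rab3a, with changes between 0.23 and 2.25 on the log2 scale, of which Unc13b, Stxbp2 and Slc18a1 turn sign with scale normalization between arrays. When the Lrp6 antibody was added to the Notch antibodies, 12 members fell against N1N2 crypts, between -0.25 for Rab26 and -1.55 for Slc17a9, and 1, Rab3b, rose by 0.31. Rab26 entered the test only through the N1N2 group, where it was highest, and 11 members fell without it. Against control crypts, N1N2 plus Lrp6 crypts had 2 members higher, Syt13 and Cacna1a, and none lower. A member was called when its adjusted p from 1 limma fit of the 15 arrays, with Benjamini-Hochberg correction over 23941 features, was under 0.05.

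Over all features, 6.57% were called higher and 5.15% lower in N1N2 against control, 9.44% higher and 7.26% lower in N1N2 plus Lrp6 against N1N2, and 0.221% higher and 0.155% lower in N1N2 plus Lrp6 against control. In either direction, the shares of all features called in these comparisons were 11.7%, 16.7% and 0.376%. The median log2 change of the 39 members was 0.21 in N1N2 against control, where all features had 0.0017. It was -0.17 in N1N2 plus Lrp6 against N1N2, where all features had -0.00094, and 0.086 in N1N2 plus Lrp6 against control, where all features had 0.013. With no filter on dim probes, the medians of all 44 members were 0.13, -0.12 and 0.085. With median centring in place of loess, the medians of the 39 members were 0.090, -0.12 and 0.055, where all features had -0.058, 0.014 and -0.019. Scale normalization between arrays gave 0.13, -0.13 and -0.045, where all features had -0.0081, 0.0095 and 0.0045. In N1N2 against control crypts, 12 members had 5 arrays all above the other group's and 1, Vamp3, had all below, where 6.14% and 5.9% of all features did so. Between N1N2 plus Lrp6 and N1N2 crypts, 8 members lay below without overlap and none above, where 4.02% and 6.13% of features did. Between N1N2 plus Lrp6 and control crypts, 2 lay above and none below, where 1.51% and 1.07% did. The comparisons are not independent of each other. N1N2 against control and N1N2 plus Lrp6 against N1N2 share the N1N2 arrays, which enter them with opposite sign, and both comparisons against control share the control arrays. In bulk crypt RNA, more cells of a type and more RNA per cell cannot be told apart.

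**Figure D1:**
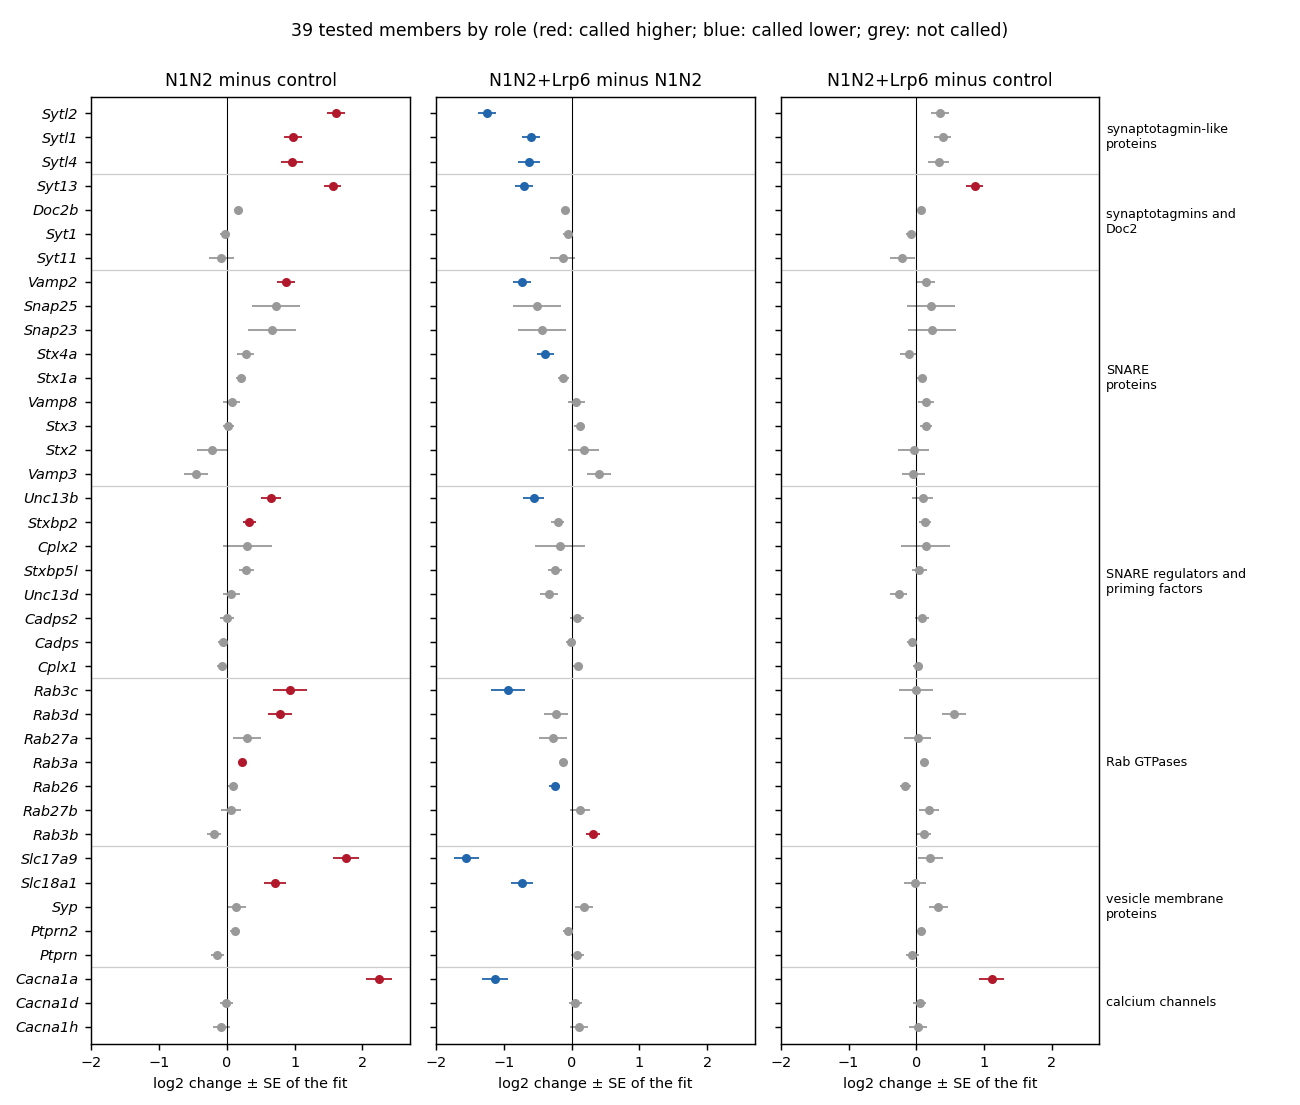
Log2 changes (dots) with the SE of the fit (bars) of the 39 tested members, grouped by role, in the 3 comparisons, with members called higher in red, called lower in blue and not called in grey. The 13 calls of N1N2 minus control lie between 0.23 and 2.25, and the N1N2 plus Lrp6 minus N1N2 panel has 12 calls below 0 and 1 above. With scale normalization between arrays, Stxbp2, Unc13b and Slc18a1 take the opposite sign in N1N2 minus control, and with median centring Stx4a does so in N1N2 plus Lrp6 minus N1N2.

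Among the calcium channels, Cacna1a, the pore-forming subunit of the P/Q-type channel that triggers transmitter release at many synapses, had the highest change of all members in N1N2 crypts. Cacna1a had log2 ratios of -0.069, 0.35, 0.041, -0.51 and -0.60 in N1N2 plus Lrp6 crypts, 0.63, 1.02, 0.56, 1.44 and 1.22 in N1N2 crypts and -1.14, -1.40, -1.41, -1.26 and -1.14 in control crypts. The 3 groups did not overlap on this probe: every N1N2 array was the highest, every control array the lowest, and the N1N2 plus Lrp6 arrays lay between. Cacna1a was 2.25 ± 0.19 higher on the log2 scale in N1N2 than in control crypts (4.74-fold, adjusted p = 2.94e-06). Adding the Lrp6 antibody gave a change of -1.13 ± 0.19 against N1N2 crypts (2.19-fold lower, adjusted p = 0.00145). In N1N2 plus Lrp6 crypts it was still 1.11 ± 0.19 above control (2.16-fold, adjusted p = 0.0218). A second Cacna1a probe gave smaller changes of the same sign, 0.84 ± 0.13 for N1N2 against control (adjusted p = 0.000983), -0.60 ± 0.13 for N1N2 plus Lrp6 against N1N2 (adjusted p = 0.00726) and 0.24 ± 0.13 for N1N2 plus Lrp6 against control, which was not called (adjusted p = 0.464).

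The call of Cacna1a in N1N2 plus Lrp6 against control was lost when control replicate 2, 3, 4 or 5 or N1N2 plus Lrp6 replicate 3 was left out. Its changes were then 1.06 to 1.14, with adjusted p from 0.0517 to 0.0709. On the slide that held both groups, Cacna1a was 2.03 higher in N1N2 than in control crypts. The other channels did not pass the test in any comparison. Cacna1h, the pore of a T-type channel that opens at low voltage, had log2 ratios of 0.33, 0.68, 1.05, 0.72 and 0.42 in N1N2 plus Lrp6 crypts, 0.49, 0.31, 0.79, 0.32 and 0.74 in N1N2 crypts and 0.54, 0.61, 0.55, 0.64 and 0.73 in control crypts. Cacna1d, the pore of an L-type channel found in endocrine cells, had 0.11, 0.15, 0.36, 0.22 and -0.13 in N1N2 plus Lrp6 crypts, 0.11, 0.13, 0.18, -0.15 and 0.18 in N1N2 crypts and 0.10, 0.073, -0.13, 0.22 and 0.20 in control crypts. The groups overlapped for both genes, and their changes lay between -0.081 and 0.11. A second Cacna1h probe, matched to another transcript, differed by 0.30 ± 0.094 between N1N2 and control crypts (adjusted p = 0.0502).

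The synaptotagmins and Doc2b are C2-domain proteins, most of which bind calcium and membranes. Of the 4 tested, Syt13 rose in N1N2 crypts and the other 3 were not called. Syt13, an atypical synaptotagmin without the usual calcium-binding residues, had log2 ratios of -2.29, -2.45, -2.49, -2.70 and -3.04 in N1N2 plus Lrp6 crypts, -2.22, -1.84, -1.89, -1.77 and -1.73 in N1N2 crypts and -3.51, -3.34, -3.62, -3.47 and -3.31 in control crypts. Its groups also stood apart without overlap, N1N2 highest, control lowest and N1N2 plus Lrp6 between them. The change was 1.56 ± 0.13 in N1N2 against control (2.95-fold, adjusted p = 2.87e-06) and 1.37 on the slide shared by both groups. In N1N2 plus Lrp6 crypts Syt13 was 1.63-fold lower than in N1N2 crypts (-0.70 ± 0.13, adjusted p = 0.00262) and 1.81-fold higher than in control crypts (0.86 ± 0.13, adjusted p = 0.00723).

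Syt11, a synaptotagmin that does not bind calcium, had log2 ratios of -1.28, -1.27, -1.01, -1.16 and -1.03 in N1N2 plus Lrp6 crypts, -1.54, -0.38, -1.11, -0.86 and -1.21 in N1N2 crypts and -1.45, -0.58, -0.96, -0.98 and -0.73 in control crypts. Doc2b, a high-affinity calcium sensor of the same fold, had 0.25, 0.16, 0.14, 0.079 and 0.17 in N1N2 plus Lrp6 crypts, 0.20, 0.23, 0.23, 0.36 and 0.25 in N1N2 crypts and 0.093, -0.015, 0.14, 0.16 and 0.086 in control crypts. All N1N2 arrays lay above all control arrays for Doc2b, by a small margin, and the change of 0.16 ± 0.059 was not called (adjusted p = 0.0887). Syt1, the fast calcium sensor of synaptic vesicles, had -0.25, 0.067, -0.14, -0.13 and -0.019 in N1N2 plus Lrp6 crypts, 0.068, -0.11, -0.13, -0.029 and 0.012 in N1N2 crypts and 0.084, -0.11, -0.13, 0.021 and 0.061 in control crypts. Its probe was well above background on 4 N1N2 arrays and 4 control arrays and on no N1N2 plus Lrp6 array, so its level in N1N2 plus Lrp6 crypts is only a bound. The groups overlapped, and Syt1 was not called in any comparison (adjusted p = 0.695 for N1N2 plus Lrp6 against N1N2). Syt7, a slower calcium sensor of secretory granules, was well above background on 2 N1N2 plus Lrp6, 1 N1N2 and 2 control arrays.

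**Figure D2:**
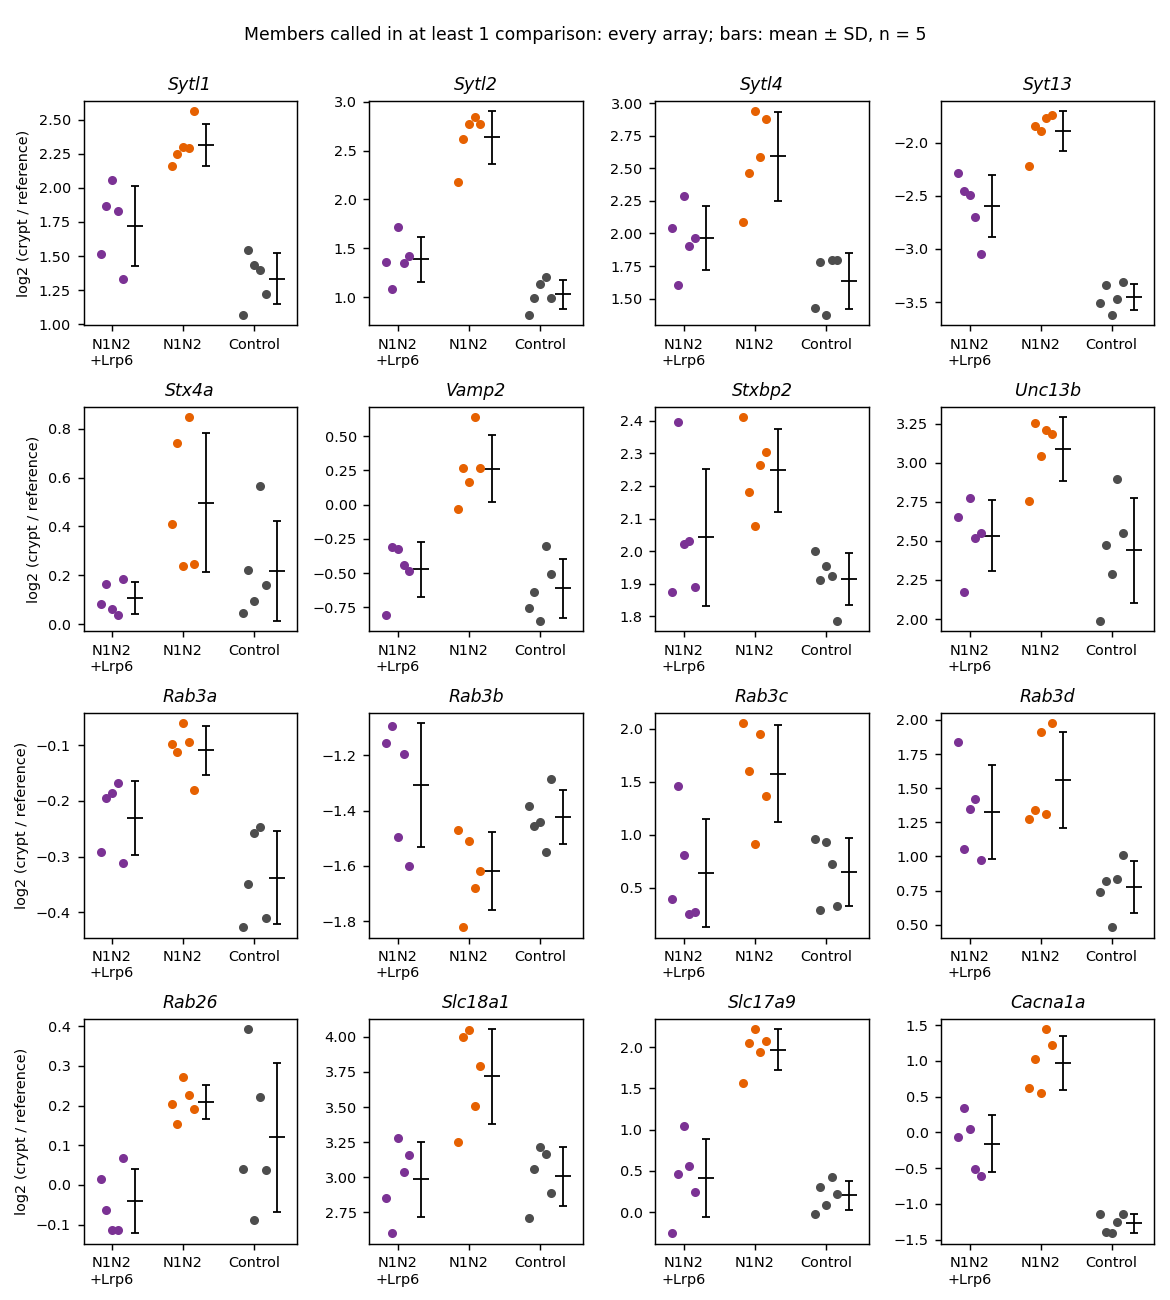
Log2 ratio of crypt over reference (vertical axis) on every array for the 16 members called in at least 1 comparison, with N1N2 plus Lrp6 at left, N1N2 in the middle and control at right, and bars for the mean ± SD (n = 5). For Cacna1a and Syt13 the 3 groups do not overlap, while for Rab3c and Unc13b the N1N2 arrays overlap those of both other groups. The Unc13b, Stxbp2 and Slc18a1 differences between N1N2 and control turn round with scale normalization between arrays, as does that of Stx4a between N1N2 plus Lrp6 and N1N2 with median centring.

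Of the 9 SNARE proteins, which form the fusion complex itself, Vamp2 rose in N1N2 crypts and Vamp2 and Stx4a fell in N1N2 plus Lrp6 against N1N2 crypts (Stx4a only without median centring). Vamp2, the vesicle SNARE of synaptic vesicles and many secretory granules, had log2 ratios of -0.81, -0.31, -0.32, -0.44 and -0.48 in N1N2 plus Lrp6 crypts, -0.029, 0.27, 0.16, 0.64 and 0.27 in N1N2 crypts and -0.76, -0.63, -0.85, -0.30 and -0.51 in control crypts. The N1N2 arrays lay above all arrays of both other groups, which overlapped each other. Vamp2 was 0.87 ± 0.13 higher in N1N2 than in control crypts (1.83-fold, adjusted p = 0.000658; 0.53 on the shared slide) and changed by -0.74 ± 0.13 in N1N2 plus Lrp6 against N1N2 crypts (1.67-fold lower, adjusted p = 0.00236). N1N2 plus Lrp6 and control crypts differed by 0.14 ± 0.13 (adjusted p = 0.695).

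Stx4a, a plasma membrane syntaxin that lies on the basolateral side of epithelial cells, had log2 ratios of 0.084, 0.16, 0.063, 0.040 and 0.18 in N1N2 plus Lrp6 crypts, 0.41, 0.74, 0.24, 0.85 and 0.25 in N1N2 crypts and 0.047, 0.22, 0.098, 0.57 and 0.16 in control crypts. All N1N2 plus Lrp6 arrays were below all N1N2 arrays, and the control arrays overlapped both groups. The change was -0.39 ± 0.12 in N1N2 plus Lrp6 against N1N2 crypts (1.31-fold lower, adjusted p = 0.0423), where a second Stx4a probe gave -0.0054 ± 0.10 (adjusted p = 0.982) and median centring of the first gave 0.0035. The call was also lost when control replicate 2 or 5, N1N2 replicate 1, 2 or 4, or N1N2 plus Lrp6 replicate 1, 3, 4 or 5 was left out. The changes were then -0.41 to -0.30, with adjusted p from 0.0504 to 0.119.

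Snap25, the plasma membrane SNARE of neurons and endocrine cells, had log2 ratios of 1.17, 3.34, 2.44, 2.05 and 1.89 in N1N2 plus Lrp6 crypts, 3.73, 2.37, 2.36, 2.69 and 2.27 in N1N2 crypts and 2.595, 1.65, 2.19, 1.70 and 1.66 in control crypts. Snap23, its widely expressed relative, had 1.07, 3.33, 2.27, 2.02 and 1.74 in N1N2 plus Lrp6 crypts, 3.54, 2.19, 2.21, 2.48 and 2.18 in N1N2 crypts and 2.45, 1.53, 2.02, 1.65 and 1.60 in control crypts. The arrays of each group were widely spread on both probes, and neither gene was called: Snap25 differed by 0.73 ± 0.35 (adjusted p = 0.207) and Snap23 by 0.67 ± 0.35 (adjusted p = 0.246) between N1N2 and control crypts. On every array the Snap25 value lay within 0.21 of that of the Snap23 probe, with differences from 0.0071 to 0.21, although the Snap25 values spanned 1.17 to 3.73. A second Snap23 probe, matched to the other Snap23 transcript, spanned -0.23 to 0.97 and lay 0.20 to 3.75 below Snap25. The size of such offsets also depends on what the reference holds. Whether the first Snap23 probe also takes up Snap25 transcript was not tested, so values of the pair are uncertain as gene levels.

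**Figure D3:**
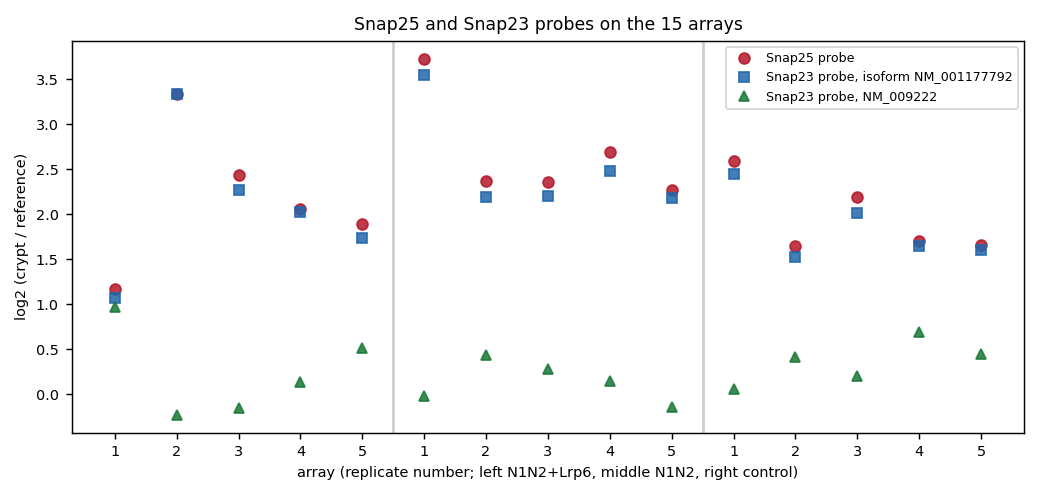
Log2 ratio of crypt over reference (vertical axis) on each of the 15 arrays (horizontal axis, N1N2 plus Lrp6 at left, N1N2 in the middle, control at right) for the Snap25 probe and both Snap23 probes. The Snap25 probe and the first Snap23 probe differ by at most 0.21 on any array, while the second Snap23 probe stays between -0.23 and 0.97.

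Vamp8, a vesicle SNARE of zymogen and mucin granules, had log2 ratios of 1.17, 1.72, 1.37, 1.45 and 1.33 in N1N2 plus Lrp6 crypts, 1.64, 1.20, 1.26, 1.03 and 1.53 in N1N2 crypts and 1.43, 1.25, 1.35, 1.19 and 1.101 in control crypts, with overlapping groups and changes of 0.070, 0.072 and 0.14 in the 3 comparisons. Vamp3, a vesicle SNARE of recycling endosomes, averaged 0.19 ± 0.44 in N1N2 plus Lrp6 crypts, -0.21 ± 0.21 in N1N2 crypts and 0.24 ± 0.17 in control crypts (SD, n = 5 each). All 5 N1N2 arrays lay below all control arrays for Vamp3, and the change of -0.45 ± 0.17 did not pass the test (adjusted p = 0.11). Stx3, an apical syntaxin of epithelial cells, averaged 2.03 ± 0.18 in N1N2 plus Lrp6 crypts, 1.91 ± 0.062 in N1N2 crypts and 1.89 ± 0.095 in control crypts, and its changes of 0.021 to 0.14 were not called. Stx1a, the plasma membrane syntaxin of neurons and endocrine cells, differed by 0.21 ± 0.078 between N1N2 and control crypts (adjusted p = 0.0955). Stx2, another plasma membrane syntaxin, differed by -0.22 ± 0.23 (adjusted p = 0.597).

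Among the SNARE regulators and priming factors, Unc13b and Stxbp2 rose in N1N2 crypts and Unc13b fell in N1N2 plus Lrp6 against N1N2 crypts, out of 8 tested, though both rises turn sign with scale normalization between arrays. Unc13b, a Munc13 protein that readies vesicles for fusion, had log2 ratios of 2.65, 2.17, 2.78, 2.52 and 2.55 in N1N2 plus Lrp6 crypts, 2.76, 3.26, 3.04, 3.21 and 3.19 in N1N2 crypts and 1.99, 2.47, 2.29, 2.90 and 2.55 in control crypts. N1N2 arrays were mostly the highest, but the lowest of them lay below 1 control array and 1 N1N2 plus Lrp6 array. The changes were 0.65 ± 0.15 against control (1.57-fold, adjusted p = 0.0134; 0.28 on the shared slide; -0.14 with scale normalization between arrays) and -0.56 ± 0.15 in N1N2 plus Lrp6 against N1N2 (1.47-fold lower, adjusted p = 0.0215).

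Stxbp2, or Munc18-2, the partner of apical syntaxins in epithelial and blood cells, had log2 ratios of 1.87, 2.40, 2.02, 2.03 and 1.89 in N1N2 plus Lrp6 crypts, 2.41, 2.18, 2.08, 2.27 and 2.31 in N1N2 crypts and 2.00, 1.91, 1.95, 1.93 and 1.78 in control crypts. All N1N2 arrays were above all control arrays, and the N1N2 plus Lrp6 arrays overlapped both. Stxbp2 was 0.33 ± 0.096 higher in N1N2 than in control crypts (1.26-fold, adjusted p = 0.035; 0.44 on the shared slide; -0.21 with scale normalization between arrays), and -0.21 ± 0.096 in N1N2 plus Lrp6 against N1N2 was not called (adjusted p = 0.167). A second Stxbp2 probe was called in both, at 0.45 ± 0.11 (adjusted p = 0.0195) and -0.49 ± 0.11 (adjusted p = 0.00923). The Stxbp2 call was lost without control replicate 2, 4 or 5 or N1N2 replicate 1, 2, 4 or 5 (0.29 to 0.35, adjusted p 0.0509 to 0.0967), and the Unc13b call in N1N2 plus Lrp6 against N1N2 without N1N2 replicate 2 or 4 (changes of -0.52 and -0.53, adjusted p = 0.0578 and 0.0587).

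Cplx2, a complexin that clamps and then promotes SNARE fusion, had log2 ratios of 3.09, 4.83, 3.68, 3.49 and 3.05 in N1N2 plus Lrp6 crypts, 4.71, 3.43, 2.97, 3.86 and 4.00 in N1N2 crypts and 4.07, 2.92, 4.13, 3.23 and 3.12 in control crypts. These arrays were as widely spread as those of Snap25 and Snap23, and the change of 0.30 ± 0.37 in N1N2 against control was not called (adjusted p = 0.655). For Snap25, Snap23 and Cplx2 alike, the highest N1N2 plus Lrp6 value came from replicate 2 and the highest N1N2 value from replicate 1. This was not particular to these genes, as the enterocyte marker mean was highest on the same arrays, at 7.55 and 7.78. The goblet marker mean was highest on N1N2 plus Lrp6 replicate 2 (5.65) but on N1N2 replicate 3 (6.19). Of 3 other Cplx2 probes, 1 was called in N1N2 against control, at 0.71 ± 0.20 (adjusted p = 0.0322). Unc13d, the Munc13 protein that binds Rab27a, had 1.65, 1.54, 1.85, 1.95 and 1.66 in N1N2 plus Lrp6 crypts, 1.76, 2.37, 2.01, 2.22 and 1.95 in N1N2 crypts and 1.68, 2.21, 1.84, 2.17 and 2.08 in control crypts. The groups overlapped, and the change of -0.33 ± 0.13 against N1N2 crypts was not called (adjusted p = 0.0913).

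Cadps2, a priming factor of dense-core granules, had log2 ratios of 2.00, 1.55, 1.86, 1.76 and 2.18 in N1N2 plus Lrp6 crypts, 1.65, 1.76, 2.01, 1.70 and 1.81 in N1N2 crypts and 1.72, 1.86, 1.83, 1.69 and 1.83 in control crypts. Cadps, its close relative, changed by -0.052, -0.016 and -0.067 in the 3 comparisons. Stxbp5l, or tomosyn-2, an inhibitor of SNARE assembly, differed by 0.29 ± 0.11 between N1N2 and control crypts (adjusted p = 0.0933), and Cplx1 by -0.071 ± 0.079 (adjusted p = 0.626). None of these was called in any comparison. Rims2 and Unc13a, active zone proteins that organise release sites, were well above background on 1 N1N2 plus Lrp6 array and on no N1N2 or control array.

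The Rab proteins of the set are GTPases that mark secretory vesicles and recruit effectors to them, and all 7 were tested. Rab3c, Rab3d and Rab3a rose in N1N2 crypts, Rab3c and Rab26 fell in N1N2 plus Lrp6 against N1N2 crypts, and Rab3b rose there. Rab3c, a vesicle Rab best known from neurons and endocrine cells, had log2 ratios of 0.40, 1.47, 0.81, 0.26 and 0.27 in N1N2 plus Lrp6 crypts, 2.06, 1.60, 0.92, 1.95 and 1.36 in N1N2 crypts and 0.97, 0.29, 0.93, 0.72 and 0.33 in control crypts. The groups overlapped, with N1N2 replicate 3 inside the range of both other groups. The changes were 0.93 ± 0.25 in N1N2 against control (1.91-fold, adjusted p = 0.0256; 1.30 on the shared slide) and -0.94 ± 0.25 in N1N2 plus Lrp6 against N1N2 (1.92-fold lower, adjusted p = 0.0183). N1N2 plus Lrp6 and control crypts differed by -0.0068. The 3 Rab3c probes did not give 1 answer. A second was called in the same directions, at 0.87 ± 0.25 (adjusted p = 0.0339) and -0.83 ± 0.25 (adjusted p = 0.0303). Another had the opposite signs, -0.29 ± 0.14 (adjusted p = 0.206) and 0.37 ± 0.14 (adjusted p = 0.0949).

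Rab3d, the Rab3 protein of zymogen and other exocrine granules, had log2 ratios of 1.84, 1.05, 1.35, 1.42 and 0.97 in N1N2 plus Lrp6 crypts, 1.27, 1.34, 1.91, 1.31 and 1.98 in N1N2 crypts and 0.74, 0.82, 0.48, 0.83 and 1.01 in control crypts. All N1N2 arrays were above all control arrays, and the N1N2 plus Lrp6 arrays overlapped both. The change was 0.79 ± 0.18 in N1N2 against control (1.72-fold, adjusted p = 0.0103; 0.38 on the shared slide), and a second Rab3d probe gave 0.21 ± 0.090 (adjusted p = 0.144). N1N2 plus Lrp6 crypts differed by -0.24 ± 0.18 from N1N2 (adjusted p = 0.426) and by 0.55 ± 0.18 from control (adjusted p = 0.21), neither called. Rab3a, the Rab3 protein of synaptic vesicles, had -0.29, -0.19, -0.19, -0.17 and -0.31 in N1N2 plus Lrp6 crypts, -0.098, -0.11, -0.060, -0.094 and -0.18 in N1N2 crypts and -0.43, -0.35, -0.26, -0.25 and -0.41 in control crypts. Every N1N2 array lay above every control array for Rab3a, and the change was small, 0.23 ± 0.060 (1.17-fold, adjusted p = 0.0226; 0.22 on the shared slide).

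Rab3b, the remaining Rab3 protein, had log2 ratios of -1.16, -1.09, -1.497, -1.20 and -1.60 in N1N2 plus Lrp6 crypts, -1.47, -1.82, -1.51, -1.68 and -1.62 in N1N2 crypts and -1.39, -1.46, -1.44, -1.55 and -1.29 in control crypts. Here 3 of the 5 N1N2 plus Lrp6 arrays lay above all N1N2 arrays, and the change was 0.31 ± 0.10 (1.24-fold, adjusted p = 0.0496). Rab26, a Rab of maturing secretory granules, had 0.015, -0.064, -0.11, -0.11 and 0.068 in N1N2 plus Lrp6 crypts, 0.20, 0.15, 0.27, 0.23 and 0.19 in N1N2 crypts and 0.041, 0.39, -0.090, 0.22 and 0.037 in control crypts, on a probe near background. It was well above background on 2 N1N2 plus Lrp6, 4 N1N2 and 3 control arrays. All N1N2 plus Lrp6 arrays were below all N1N2 arrays for Rab26, a change of -0.25 ± 0.082 (adjusted p = 0.0479). Because it passed the filter only through the group where it was highest, this call is favoured by the filter, and with no filter it was lost (adjusted p = 0.0535).

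Leaving out single arrays ended several Rab calls. Rab3c lost its call in N1N2 against control without control replicate 2 or 5 or N1N2 replicate 1 or 4 (0.81 to 0.85, adjusted p 0.0581 to 0.0743), and in N1N2 plus Lrp6 against N1N2 without replicate 4 of either group (-0.84 for each, adjusted p = 0.0527 and 0.0562). Rab3a lost its call without control replicate 1, 2 or 5 or N1N2 replicate 4 (0.21 to 0.23, adjusted p 0.0552 to 0.0668). Rab3b lost its call without any 1 control array, without N1N2 replicate 2, 3, 4 or 5, or without N1N2 plus Lrp6 replicate 1, 2 or 4 (0.26 to 0.34, adjusted p 0.0548 to 0.131). Rab26 lost its call without control replicate 1, 4 or 5, any 1 N1N2 array, or N1N2 plus Lrp6 replicate 1, 2, 3 or 4 (-0.27 to -0.23, adjusted p 0.0542 to 0.108).

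Rab27b, which with Rab27a docks granules in endocrine, exocrine and blood cells, had log2 ratios of 1.93, 0.95, 1.60, 1.504 and 1.37 in N1N2 plus Lrp6 crypts, 1.01, 1.33, 1.37, 1.39 and 1.63 in N1N2 crypts and 1.19, 1.31, 1.16, 1.34 and 1.39 in control crypts. Rab27a had 1.35, -0.020, 1.05, 0.65 and 1.09 in N1N2 plus Lrp6 crypts, 0.62, 1.14, 1.32, 1.23 and 1.19 in N1N2 crypts and 0.80, 0.94, 0.70, 0.80 and 0.78 in control crypts. The groups overlapped for both genes, N1N2 plus Lrp6 replicate 2 was the lowest array of its group for each, and neither gene was called, with changes of 0.067 and 0.30 in N1N2 against control.

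The synaptotagmin-like proteins bind Rab27 on granules and link them to the plasma membrane. All 3 tested members of this role rose in N1N2 crypts and fell in N1N2 plus Lrp6 against N1N2 crypts. The medians of their log2 changes were 0.98 and -0.63. Sytl3, a synaptotagmin-like protein outside the member list, was also tested and was not called in any comparison. Sytl2, which in mouse stomach is needed for mucus granule release, had log2 ratios of 1.36, 1.09, 1.72, 1.35 and 1.42 in N1N2 plus Lrp6 crypts, 2.17, 2.62, 2.77, 2.85 and 2.77 in N1N2 crypts and 0.82, 0.99, 1.14, 1.21 and 0.996 in control crypts. N1N2 arrays lay far above those of both other groups, which overlapped. Sytl2 was 1.61 ± 0.13 higher in N1N2 than in control crypts (3.04-fold, adjusted p = 2.87e-06; 1.29 on the shared slide), and changed by -1.25 ± 0.13 in N1N2 plus Lrp6 against N1N2 (2.38-fold lower, adjusted p = 0.000247). It differed by 0.36 ± 0.13 between N1N2 plus Lrp6 and control crypts (adjusted p = 0.283).

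Sytl1, a Rab27 effector of exocrine and blood cell granules, had log2 ratios of 1.51, 1.87, 2.06, 1.83 and 1.33 in N1N2 plus Lrp6 crypts, 2.16, 2.25, 2.30, 2.29 and 2.57 in N1N2 crypts and 1.07, 1.54, 1.43, 1.40 and 1.22 in control crypts. Again N1N2 arrays were above all others. Its changes were 0.98 ± 0.13 in N1N2 against control (1.97-fold, adjusted p = 0.000233; 0.89 on the shared slide) and -0.59 ± 0.13 in N1N2 plus Lrp6 against N1N2 (1.51-fold lower, adjusted p = 0.00711). A second Sytl1 probe had the same signs and was not called, at 0.37 ± 0.13 (adjusted p = 0.0714) and -0.26 ± 0.13 (adjusted p = 0.186).

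Sytl4, or granuphilin, which docks insulin granules in mouse beta cells, had log2 ratios of 2.04, 1.61, 2.29, 1.91 and 1.97 in N1N2 plus Lrp6 crypts, 2.09, 2.47, 2.94, 2.58 and 2.88 in N1N2 crypts and 1.42, 1.78, 1.37, 1.80 and 1.79 in control crypts. All N1N2 arrays were above all control arrays, while N1N2 replicate 1 lay within the N1N2 plus Lrp6 range. Sytl4 changed by 0.96 ± 0.16 in N1N2 against control (1.94-fold, adjusted p = 0.00147; 0.48 on the shared slide) and by -0.63 ± 0.16 in N1N2 plus Lrp6 against N1N2 (1.55-fold lower, adjusted p = 0.0143). The second call was lost with the scanner's log ratio (-0.16), with flagged spots kept (-0.43) and with scale normalization (-0.43), at adjusted p from 0.428 to 0.823. The call against control was lost with the scanner's log ratio (1.11, adjusted p = 0.0636) and with scale normalization (0.39, adjusted p = 0.531). Sytl5 was well above background on 3 N1N2 arrays, 3 control arrays and no N1N2 plus Lrp6 array.

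Of the vesicle membrane proteins, the transporters Slc17a9 and Slc18a1 rose in N1N2 crypts and fell in N1N2 plus Lrp6 against N1N2 crypts, and the 3 others tested were not called. Slc17a9, or VNUT, which loads ATP into vesicles, had log2 ratios of -0.26, 0.46, 1.04, 0.56 and 0.25 in N1N2 plus Lrp6 crypts, 1.56, 2.05, 2.22, 1.93 and 2.07 in N1N2 crypts and -0.015, 0.31, 0.086, 0.43 and 0.22 in control crypts. The N1N2 arrays lay above all other arrays with a wide gap, and the other groups overlapped. Slc17a9 was 1.76 ± 0.19 higher in N1N2 than in control crypts (3.39-fold, adjusted p = 2.88e-05; 1.48 on the shared slide). Its change was -1.55 ± 0.19 in N1N2 plus Lrp6 against N1N2 (2.94-fold lower, adjusted p = 0.000404). N1N2 plus Lrp6 and control crypts differed by 0.21 ± 0.19 (adjusted p = 0.677).

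Slc18a1, or VMAT1, which loads serotonin into the granules of enterochromaffin cells, had log2 ratios of 2.85, 2.599, 3.28, 3.04 and 3.16 in N1N2 plus Lrp6 crypts, 3.25, 4.00, 4.05, 3.51 and 3.79 in N1N2 crypts and 2.71, 3.06, 3.22, 3.16 and 2.88 in control crypts. All N1N2 arrays were above all control arrays, narrowly at the nearest pair, and 1 N1N2 plus Lrp6 array reached the N1N2 range. The changes were 0.71 ± 0.16 in N1N2 against control (1.64-fold, adjusted p = 0.0106; 0.60 on the shared slide; -0.16 with scale normalization between arrays) and -0.73 ± 0.16 in N1N2 plus Lrp6 against N1N2 (1.66-fold lower, adjusted p = 0.00686). The second call was lost with the scanner's log ratio (-0.23), scale normalization (-0.46) and flagged spots kept (-0.53), at adjusted p from 0.358 to 0.745. The call against control was also lost with the scanner's log ratio (0.44, adjusted p = 0.433) and with median centring (0.62, adjusted p = 0.068).

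Syp, or synaptophysin, an integral protein of synaptic and endocrine vesicles, had log2 ratios of 1.96, 2.52, 1.78, 2.22 and 2.04 in N1N2 plus Lrp6 crypts, 1.99, 1.67, 1.72, 1.92 and 2.30 in N1N2 crypts and 1.82, 1.61, 1.87, 1.68 and 1.90 in control crypts. Ptprn2, a dense-core granule membrane protein, had -0.18, 0.027, -0.20, -0.31 and -0.23 in N1N2 plus Lrp6 crypts, -0.074, -0.17, -0.27, -0.049 and -0.063 in N1N2 crypts and -0.26, -0.33, -0.071, -0.28 and -0.29 in control crypts. Ptprn, its close relative, had -0.90, -0.88, -1.13, -1.13 and -1.12 in N1N2 plus Lrp6 crypts, -0.87, -1.03, -1.37, -1.17 and -1.14 in N1N2 crypts and -1.06, -0.93, -0.999, -0.81 and -1.07 in control crypts. Groups overlapped for all 3 genes, and the largest of their changes was 0.33 ± 0.14 for Syp in N1N2 plus Lrp6 against control (adjusted p = 0.328). Ptprn was well above background on only 1 N1N2 plus Lrp6 array, against 5 N1N2 and 5 control arrays. Sv2a, a synaptic vesicle glycoprotein, was not well above background on any array.

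**Figure D4:**
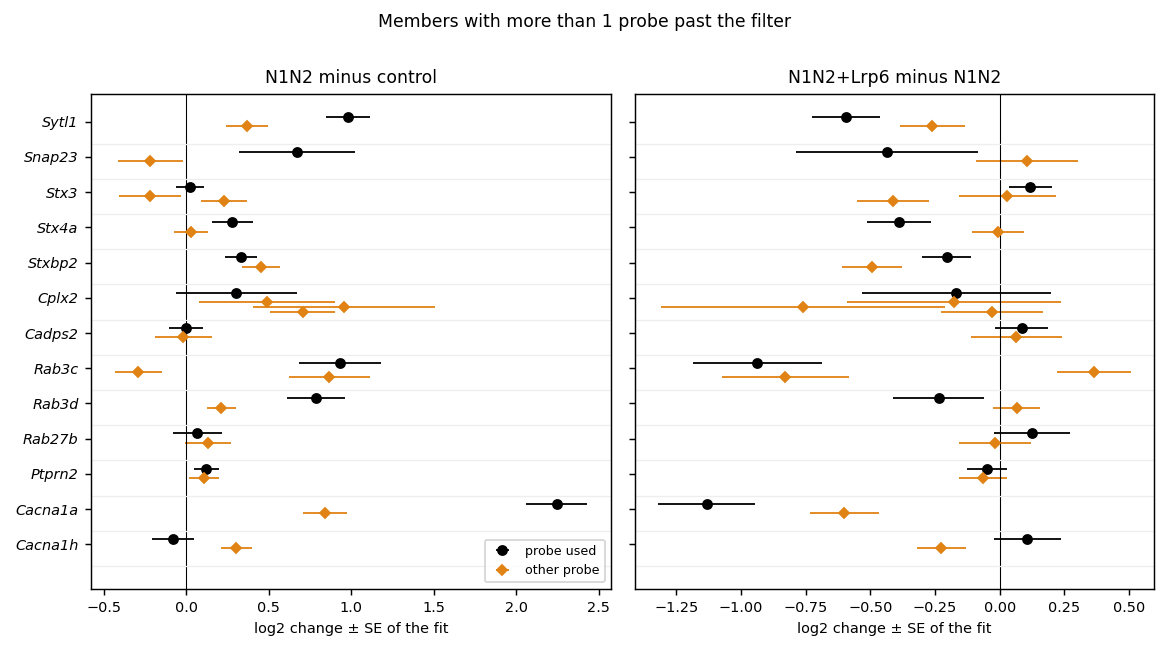
Log2 change with the SE of the fit (horizontal axis) for the probe used (black) and the other probes past the filter (orange) of the 13 members that had more than 1, in N1N2 minus control at left and N1N2 plus Lrp6 minus N1N2 at right. Both Cacna1a probes lie above 0 at left (2.25 and 0.84), while the Rab3c probes lie on both sides of 0 (0.93, 0.87 and -0.29).

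On the slide that held both groups, with 2 arrays each, all 13 members called in N1N2 against control had differences above 0, from 0.22 to 2.03, and none passed the test at that size (adjusted p 0.0981 to 0.615). With slide as a term in the fit of all arrays the differences were the same and 3 members were called, Cacna1a (adjusted p = 0.00498), Syt13 (adjusted p = 0.00513) and Sytl2 (adjusted p = 0.0193). Over all features that fit called 109, of which 78 were higher, against 2808 and 1574 without the slide term. For both comparisons of the N1N2 plus Lrp6 group, slide and group cannot be told apart. Without replicate 5 of that group, the only array on its slide, 11 members were called lower and 1 higher against N1N2 crypts, and the same number as with it, 2, were called higher against control crypts. Over all features, the calls against control were then 349, of which 232 were higher, against 90 and 53 with replicate 5.

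Other processing ended further calls. In N1N2 against control, median centring ended 6 of the 13 (Stxbp2, Unc13b, Rab3a, Rab3c, Rab3d and Slc18a1). Scale normalization ended 4 (Sytl1, Sytl4, Rab3c and Rab3d) and turned 3, and the scanner's log ratio ended 4 (Sytl4, Stxbp2, Rab3a and Slc18a1). Of the 13 calls in N1N2 plus Lrp6 against N1N2, median centring ended 6 (Sytl1, Syt13, Unc13b, Rab3b, Rab3c and Rab26) and turned Stx4a. Scale normalization ended 10 and kept 3 (Cacna1a, Vamp2 and Slc17a9). The scanner's log ratio ended 6 (Sytl4, Stx4a, Unc13b, Rab3b, Rab26 and Slc18a1), and flagged spots kept ended 5 of these, all but Rab26. Against control, both calls of N1N2 plus Lrp6 crypts, Syt13 and Cacna1a, were lost with median centring and with scale normalization.

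The members were set beside 116 other genes of the same pathway, of which 85 were tested. Among these, 13 rose and none fell in N1N2 against control, with a median change of 0.025. In N1N2 plus Lrp6 against N1N2, 2 rose and 10 fell (median -0.041), and in N1N2 plus Lrp6 against control 1 rose and none fell (median 0.0040). Over all features, 6.57% rose and 5.15% fell in N1N2 against control. The shares were 9.44% and 7.26% in N1N2 plus Lrp6 against N1N2, and 0.221% and 0.155% in N1N2 plus Lrp6 against control. By list, 1 of 9 other synaptotagmins and relatives, 4 of 24 other SNARE proteins, 1 of 13 other SNARE regulators and active zone genes, 2 of 9 other Rab3 and Rab27 pathway genes, 2 of 19 other vesicle membrane genes and 3 of 11 other calcium channel subunits rose in N1N2 against control. In N1N2 plus Lrp6 against N1N2, 1, 5, 0, 1, 2 and 1 of them fell, and 1 SNARE gene and 1 Rab pathway gene rose.

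The other pathway genes called with at least a 1.5-fold change were Doc2g, Cacna2d2, Stx17, Vamp5 and Syngr2. Doc2g, a Doc2 relative, changed by 0.97 ± 0.21 in N1N2 against control (adjusted p = 0.0074) and by -0.93 ± 0.21 in N1N2 plus Lrp6 against N1N2 (adjusted p = 0.00701). Cacna2d2, an auxiliary calcium channel subunit, changed by 0.87 ± 0.12 (adjusted p = 0.000345) and -0.40 ± 0.12 (adjusted p = 0.0346). Stx17, a SNARE of autophagosomes, changed by 0.85 ± 0.19 (adjusted p = 0.0109) and -0.59 ± 0.19 (adjusted p = 0.0486), and Vamp5 by 0.69 ± 0.19 (adjusted p = 0.0274) and -0.77 ± 0.19 (adjusted p = 0.0121). Syngr2, a synaptogyrin found outside neurons too, changed by 0.64 ± 0.14 (adjusted p = 0.0077) and -0.44 ± 0.14 (adjusted p = 0.0407).

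Markers of the cell types that use this machinery moved in the same arrays. The counts below stand beside the shares of all features given above. Of 12 tested goblet markers, 7 rose in N1N2 against control and none fell, 6 fell in N1N2 plus Lrp6 against N1N2, and 3 were higher in N1N2 plus Lrp6 than in control crypts. The mean of the goblet markers was 4.91 to 5.65 in the N1N2 plus Lrp6 group, 5.64 to 6.19 in the N1N2 group and 4.73 to 4.98 in the control group. Of 19 enteroendocrine markers, 5 rose in N1N2 against control, 1 rose and 3 fell in N1N2 plus Lrp6 against N1N2, and 2 were higher in N1N2 plus Lrp6 than in control crypts. Their mean was 3.30 to 3.53 in the N1N2 plus Lrp6 group, 3.46 to 3.85 in the N1N2 group and 2.94 to 3.23 in the control group.

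Enterocyte markers, which belong to absorptive cells, were not called in any comparison. Of 10 tested, 9 were above 0 in N1N2 against control (median log2 change 0.21), none was above 0 in N1N2 plus Lrp6 against N1N2 (median -0.27), and 3 were above 0 in N1N2 plus Lrp6 against control (median -0.062). Over the 39 members those medians were 0.21, -0.17 and 0.086. The mean of the enterocyte markers was 6.48 to 7.55 in the N1N2 plus Lrp6 group, 6.95 to 7.78 in the N1N2 group and 6.87 to 7.23 in the control group, with overlap among all 3.

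The enteroendocrine genes called in N1N2 against control were Neurog3 at 3.83, Rfx6 at 2.20, Pax4 at 1.96, Pcsk1 at 0.88 and Isl1 at 0.47. All but Pcsk1 are transcription factors of the endocrine lineage. The goblet genes called there were Spdef, Retnlb, Ern2, Creb3l4, Creb3l1, Agr2 and Tff3, at 1.90 to 0.62. The hormone and granule genes Chga, Chgb, Gcg, Sct, Cck, Gip, Sst, Tac1, Tph1, Pcsk2, Scg2, Scg3 and Scg5 were not called in that comparison. Neurod1, another transcription factor of the endocrine lineage, was not called there either. Paneth markers, 6 tested, had 1 lower, and tuft markers, 8 tested, 1 higher in N1N2 than in control crypts, with none called in the other comparisons. The part of these cell types in the changes of the members was not tested.

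Several members are best known from neurons, and crypt preparations can carry other tissue. Of 19 enteric neuron and glia markers, 12 were tested, 1 (Nefm) rose in N1N2 against control and 1 (Ret) fell in N1N2 plus Lrp6 against N1N2. Their mean log2 ratio was -0.32 to -0.14 in the N1N2 plus Lrp6 group, -0.19 to -0.11 in the N1N2 group and -0.44 to -0.30 in the control group, so the N1N2 arrays lay above all control arrays by a small margin. Uchl1, Gap43 and S100b, defining markers of enteric neurons and glia, were not well above background on any array. Stromal, muscle and endothelial markers, 12 tested, had 2 lower in N1N2 than in control, 5 lower in N1N2 plus Lrp6 than in N1N2 and 2 lower in N1N2 plus Lrp6 than in control crypts. Their means were -3.59 to -2.96 with N1N2 plus Lrp6, -2.91 to -2.54 with N1N2 and -2.77 to -2.08 in controls. Of 5 tested mast cell markers none was called in any comparison, and of 11 immune markers 1 rose and 2 fell in N1N2 against control. The epithelial markers, 9 tested, averaged 5.51 ± 0.20, 5.64 ± 0.23 and 5.49 ± 0.050 in the N1N2 plus Lrp6, N1N2 and control groups (SD, n = 5 each). Among them, Krt18 rose by 0.83 in N1N2 against control and changed by -0.58 in N1N2 plus Lrp6 against N1N2.

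**Figure D5:**
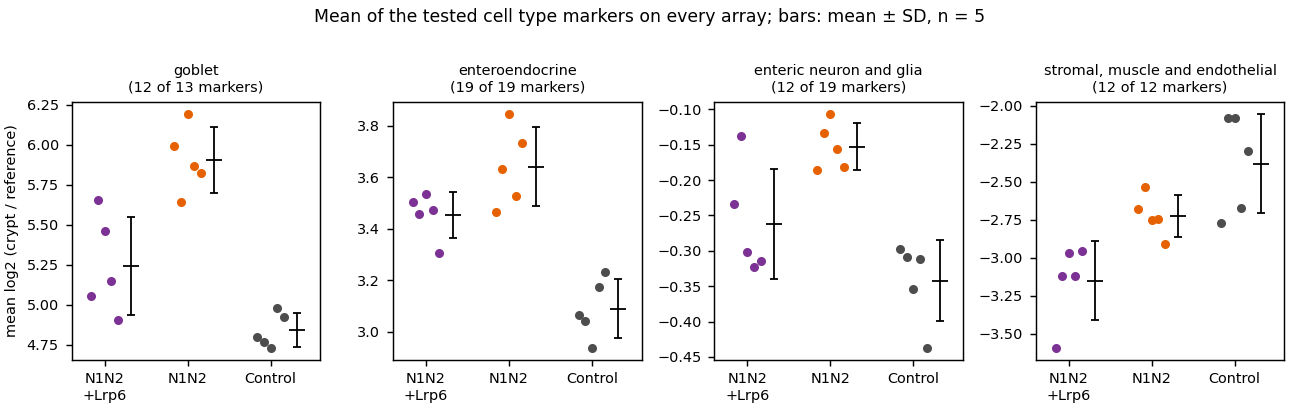
Mean log2 ratio of crypt over reference of the tested markers of 4 cell type lists (vertical axis) on every array, with N1N2 plus Lrp6 at left, N1N2 in the middle and control at right, and bars for the mean ± SD (n = 5). The N1N2 arrays lie above all control arrays for the goblet (5.64 to 6.19 against 4.73 to 4.98) and enteroendocrine lists (3.46 to 3.85 against 2.94 to 3.23).

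Taken over the whole set, 23 tested members were called in no comparison. Their changes lay between -0.45 and 0.73 in N1N2 against control, between -0.51 and 0.41 in N1N2 plus Lrp6 against N1N2 and between -0.26 and 0.33 in N1N2 plus Lrp6 against control. A p that misses the threshold does not show that the groups had the same level, and for Snap25, Snap23 and Cplx2 the SE was 0.35 to 0.37, the widest of the set in N1N2 against control.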

How the data were processed

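Feature Extraction 11.0.1.1 read the 15 arrays, per the file headers. The scanner files that the authors deposited hold median intensities of both channels, local backgrounds and quality flags, and a log10 ratio of red over green. A further file deposited by the authors gives log2 values, whose tools per the submitters' processing notes were R 3.0.0 and limma 3.6.7, and whose further steps are not given in the sources used here. Against the values computed here every column reached r = 0.99998 or more, and member changes from both were alike in sign and size, so direction (crypt over reference) and log2 scale are settled. Column medians were 0.0144 to 0.0286, and any centring behind them is unknown.

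Calculations used R 4.3.3, limma 3.58.1, with files read by data.table (version 1.17.8). Spots flagged as outliers (306 to 642 of 44397 per array) were left out before normexp background correction (offset 50), ratios were loess-normalized within arrays with control spots at weight 0, and spots of a probe were averaged. The filter kept 28491 of 39429 probes, 26581 of the 39429 having a gene name through RefSeq accessions, and the brightest probe stood for each gene. The 3 groups were compared in 1 limma fit without covariates, two-sided, with Benjamini-Hochberg adjustment over 23941 features, tested first on simulated data. Files gave median intensities only, not the means planned. Members, lists and the rule for named genes (every member, and other pathway genes called at 1.5-fold or more) were chosen with earlier results of these data known. Called members have every array's value, and up to 3 uncalled members of a role, the brightest first. The number of arrays limits the precision.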

Additional observations from a re-analysis of the deposited data

Results flagged for a closer look

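In 5 of the 117 sets of 5 arrays (39 tested members in 3 groups), 1 array stood apart from the other 4 of its group by Dixon's criterion for 5 samples (gap over range above 0.71). Chance alone flags about 1 set in 20. In the N1N2 group, replicate 1 was the array apart for Snap23, at 3.54 against 2.18 to 2.48 on the others, for Stxbp5l, at 0.068 against 0.55 to 0.66, and for Rab27a, at 0.62 against 1.14 to 1.32. Cacna1d was at -0.15 on N1N2 replicate 4, against 0.11 to 0.18 on the others of that group. Ptprn2 was at -0.071 on control replicate 3, against -0.33 to -0.26 on the others. None of these 5 genes was called in any comparison.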

How the results depend on the processing

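The 28 calls of single members were refitted 809 times in all under the alternatives: 664 refits kept the direction and the call, 141 kept the direction and lost the call, and 4 turned the direction. Those 4 were Stxbp2 (-0.21), Unc13b (-0.14) and Slc18a1 (-0.16) in N1N2 against control with scale normalization between arrays, and Stx4a (0.0035) in N1N2 plus Lrp6 against N1N2 with median centring in place of loess. The causes were not tested. The 13 members called higher in N1N2 against control became 8 with median centring, 6 with scale normalization, 3 with slide as a fixed term and 0 on the shared slide alone, where 2 arrays a group remain. Over all features the calls higher were 1574 as reported and 573, 474, 78 and 1 under these settings. The 0 called lower became 1 with only the 2 groups fitted and 1 with array weights. In N1N2 plus Lrp6 against N1N2, the 12 called lower became 7 with median centring and 3 with scale normalization, where the calls lower over all features were 1739 as reported, 780 and 159. The 1 called higher became 0 with median centring, the scanner's log ratio, scale normalization, no filter, flagged spots kept or only 2 groups, and 2 with slide as a random block (correlation -0.18) or array weights. In N1N2 plus Lrp6 against control, the 2 called higher became 0 with median centring or scale normalization, 1 with flagged spots kept or the mean of all probes, and 7 with slide as a random block, which called 1744 features higher, against 53 as reported. Leaving out 1 array gave 10 to 14 higher and 0 to 1 lower, 0 to 1 higher and 8 to 12 lower, and 1 to 2 higher and 0 lower in the 3 comparisons. With the deposited values the counts were 13 and 0, 1 and 12, and 2 and 0. Over all features, the share of calls that were higher moved from 56.1% to 45.8% with median centring, 70.2% with scale normalization and 70.5% with flagged spots kept in N1N2 against control, and from 56.5% to 77.2% with median centring in N1N2 plus Lrp6 against N1N2. Whether replicate numbers pair the arrays is not settled here. Deviations of same-numbered N1N2 and control arrays correlated at -0.011 to 0.62. Those of N1N2 plus Lrp6 arrays correlated at -0.43 to 0.098 with N1N2 arrays and at -0.27 to -0.0026 with control arrays. With the replicate number as a block the counts were 12 and 0, 0 and 11, and 1 and 0. Slide as a fixed term and the within-slide test could not be fitted for the N1N2 plus Lrp6 group. Dim probes limit Syt1, Rab26 and Stxbp5l, well above background on at most 4 arrays of any group.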
